A study of Mus musculus with 6 samples.

Results

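The collagen chain genes of the mouse lung were taken as every row of the deposited count table whose symbol is Col, a number, the letter a and a number, which gave 42 genes of 29753 rows. They comprised 11 fibrillar collagen genes, 6 basement membrane (type IV) genes, 7 genes of fibril-associated collagens with interrupted triple helices (FACIT) and 18 other collagen genes. The libraries came from lungs of balb/c mice at D14 (3 libraries) and at D0 (3 libraries) of an orthotopic K7M2 implantation; K7M2 is an osteosarcoma line of mouse origin known for seeding lung metastases. Both days carry the implantation label, and no D14 group without implanted cells was among the samples, so effects of the tumour, the procedure and the animals' age cannot be told apart. The labels number the libraries as biological replicates without saying whether each came from 1 mouse. The p-values below weigh the difference between the days against the spread among libraries of a day, estimated with information shared over genes. That spread is the only one they take in.

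Collagens are triple helices of alpha chains, some built from 1 kind of chain and others from different chains. Fibrillar collagens form the cable-like fibrils that give lung tissue its tensile strength. Type IV collagens form the sheet-like network of basement membranes, which in the alveolus lie between epithelium and capillary endothelium. FACITs sit on the surface of fibrils, and the remaining collagens form beaded filaments, networks and anchoring fibrils or span the cell membrane.

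The libraries held between 14878101 and 17385006 counts, of which 0.635% to 0.668% at D14 and 0.518% to 0.707% at D0 fell on collagen genes. Below, CPM values carry TMM scaling, and 3 counts in a library correspond to 0.174 to 0.211 CPM, a limit that covers counting error only. D0 replicate 3 stood apart from the rest: the chi-square per degree of freedom between libraries was 62.5 to 115 for pairs that include it and 25.8 to 54.4 for the others, so fold changes without it are also given for the genes in which it stood far out. The extraction text of the labels names macrophages, and the lung label was checked by markers. Alveolar type 2 epithelial markers summed to 21736 to 28609 CPM at D14 and 21602 to 48088 CPM at D0, and endothelial markers to 5002 to 5127 CPM at D14 and 2461 to 4577 CPM at D0.

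The start regions of 4 genes are shown because their transcripts carry the comparisons made here. Col4a1 and Col4a2, the abundant type IV chains, start back to back on opposite strands of chromosome 8 and are set side by side below, the Col4a4 window also holds the annotated start of Col4a3, and Col5a3 had the highest fold change among the 33 tested members. Each sequence is a RefSeq window of 300 bases (GRCm38.p6), 250 before the annotated start and 50 after it, written 5′ to 3′ on the strand of the gene. Capitals mark matches, on either strand, to the CCAAT box (CCAAT), the GC box (GGGCGG) or the TATA box (TATAAA), and no match overlaps another.
Col4a2 (chr8:11312555-11312854, plus strand): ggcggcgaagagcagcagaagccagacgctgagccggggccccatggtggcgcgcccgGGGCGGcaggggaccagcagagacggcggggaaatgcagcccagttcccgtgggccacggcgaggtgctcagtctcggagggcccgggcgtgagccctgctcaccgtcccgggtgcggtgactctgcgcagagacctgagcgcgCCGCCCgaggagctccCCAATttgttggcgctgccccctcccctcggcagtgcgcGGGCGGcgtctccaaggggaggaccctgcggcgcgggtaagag
Col4a1 (chr8:11312777-11313076, minus strand): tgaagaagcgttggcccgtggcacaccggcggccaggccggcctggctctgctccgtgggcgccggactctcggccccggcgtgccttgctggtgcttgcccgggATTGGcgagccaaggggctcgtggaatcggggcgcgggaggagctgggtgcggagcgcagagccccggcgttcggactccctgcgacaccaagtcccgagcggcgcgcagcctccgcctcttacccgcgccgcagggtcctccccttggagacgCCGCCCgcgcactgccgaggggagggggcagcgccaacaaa
Col4a4 (chr1:82586800-82587099, minus strand): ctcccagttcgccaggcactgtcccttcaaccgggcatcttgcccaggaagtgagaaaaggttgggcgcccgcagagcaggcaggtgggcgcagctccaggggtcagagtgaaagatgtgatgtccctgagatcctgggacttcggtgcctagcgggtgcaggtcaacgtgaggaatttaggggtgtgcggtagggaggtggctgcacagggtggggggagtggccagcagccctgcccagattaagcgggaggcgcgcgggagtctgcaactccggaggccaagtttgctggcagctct
Col5a3 (chr9:20815018-20815317, minus strand): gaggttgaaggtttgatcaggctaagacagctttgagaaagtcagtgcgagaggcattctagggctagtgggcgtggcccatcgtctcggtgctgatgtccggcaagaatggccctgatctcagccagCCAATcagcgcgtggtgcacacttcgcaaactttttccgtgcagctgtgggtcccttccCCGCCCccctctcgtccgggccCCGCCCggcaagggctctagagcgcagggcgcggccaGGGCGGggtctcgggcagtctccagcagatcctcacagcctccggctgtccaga

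The Col4a1 and Col4a2 windows share 78 bases, and 1 GC box, from 11312812 to 11312817 on chromosome 8, lies in both. In the GENCODE annotation the gene bodies overlap by 22 bases, and Col4a3 and Col4a4 are separated by 71 bases. The Col4a2 window held 3 GC boxes and 1 CCAAT box and the Col5a3 window likewise 3 and 1, whereas the Col4a4 window held 0 matches to any of the 3 motifs. Windows were found for 33 of the 42 genes, 35 windows in all. A GC box was present in 65.7% of the collagen windows, against 35.7% of all 32851 windows of this length, a CCAAT box in 34.3% against 37.4% and a TATA box in 14.3% against 13.6%. The median GC content was 60.0% in the collagen windows and 52.7% in all windows. A match is a run of letters and not evidence of binding.

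Levels were compared between genes as CPM per kb of the longest annotated transcript, averaged over the 6 libraries. Col3a1, the chain of type III fibrils in elastic tissues, had the highest mean level at 171 CPM per kb. Col4a1 followed at 167 and Col4a2 at 147, and the ranges of these neighbours over the libraries overlapped. The order differed between libraries. At D14 Col4a1 had 199, 186 and 204 CPM per kb against 151, 174 and 166 for Col3a1. At D0 Col4a1 had 191, 115 and 108 CPM per kb against 155, 165 and 217 for Col3a1. Col1a2 and Col1a1, the chains of type I collagen, stood at 97.0 and 66.9 CPM per kb. Between them in rank was Col6a1, a short chain of the type VI beaded filaments, at 79.2 CPM per kb, with Col6a2 at 55.8. The 3 remaining type IV chains with high levels were Col4a3, Col4a4 and Col4a5, at 44.9, 34.1 and 28.8 CPM per kb. Neighbours in this order overlapped in range except Col5a1 and Col12a1, and Col28a1 and Col24a1. At the low end Col2a1 and Col11a1, chains of cartilage collagens, stood at 0.00969 and 0.0118 CPM per kb.

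**Figure D1:**
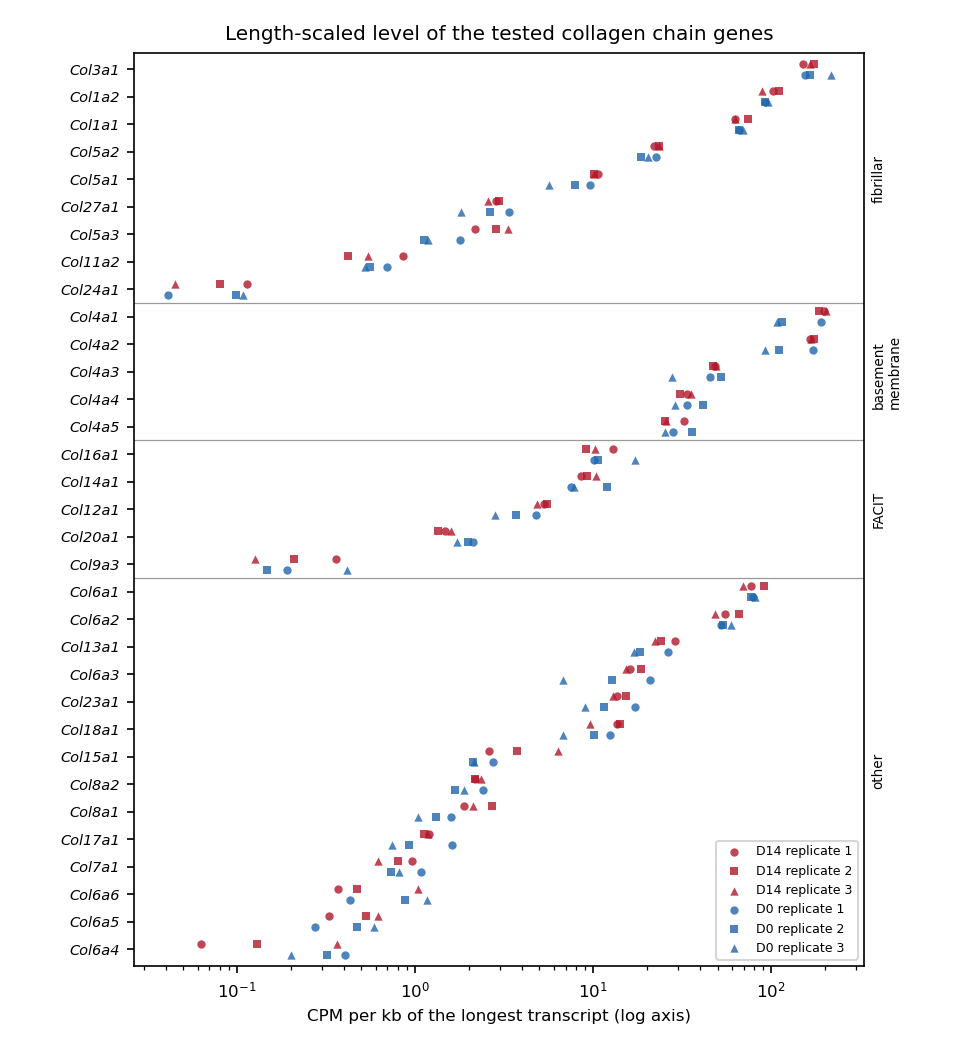
Length-scaled level of each of the 33 tested collagen chain genes in the 6 libraries, in CPM per kb on a log axis, grouped by class; each point is a library (red D14, blue D0). Col3a1 has the highest mean over all libraries (171), although the D14 points of Col4a1 lie above those of Col3a1. The D0 points of Col4a1 and Col4a2 spread more widely than the D14 points.

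Of the 42 genes 33 passed the filter on low counts and were tested within the fit of all 17686 genes. By edgeR's quasi-likelihood test 0 of them passed an adjusted p of 0.05, against 0.0339% of all tested genes (6 genes, of which 0.017% were higher and 0.017% lower), and the smallest adjusted p of a member was 0.347. At an unadjusted p below 0.05 stood 3 members, Col5a3, Col8a1 and Col15a1, all higher at D14 (9.09% of the members tested, against 5.48% of all genes higher), and 0 lower (against 7.09%). DESeq2 called 1 member at an adjusted p of 0.05, Col5a3 (adjusted p = 0.0291), against 1.54% of all genes, and limma-voom called 0. The log2 fold change was positive in 22 of 33 members, with a median of 0.10, against 46.9% and −0.03 over all tested genes; without scaling factors it was positive in 18 of 33. In range, all 3 D14 libraries lay above all 3 D0 libraries in 4 members (Col5a1, Col5a3, Col8a1 and Col12a1), or 12.1%, against 10.9% of all genes, which is close. They lay below in 1 member of 33, Col20a1, against 10.7% of all genes. In bulk lung RNA fewer cells of a type and less RNA per cell cannot be told apart.

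**Figure D2:**
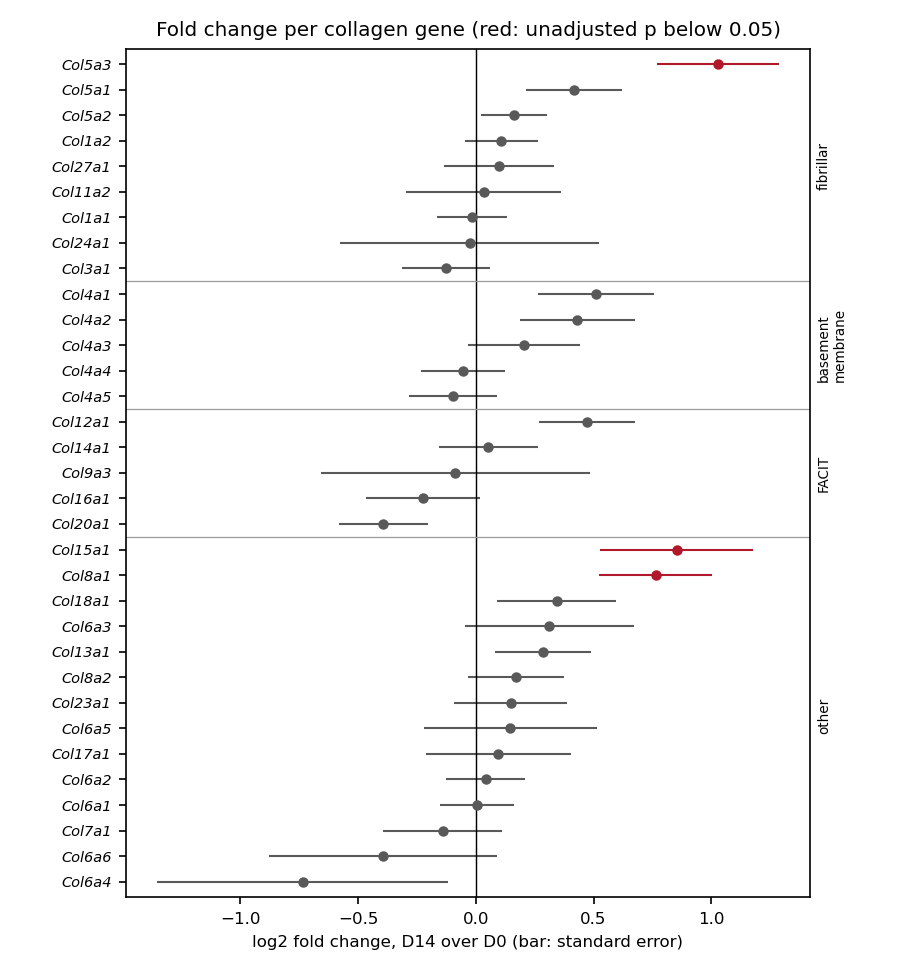
Log2 fold change (D14 over D0) of the 33 tested collagen chain genes by class, with bars of 1 standard error; red marks an unadjusted p below 0.05. Col5a3 (1.03), Col15a1 (0.85) and Col8a1 (0.76) are the red points, and none passed an adjusted p of 0.05 by edgeR.

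Among the fibrillar collagens the chains that make up most of the fibril mass were close to even between the days. Col1a1, which supplies most chains of type I collagen, had 371, 443 and 369.6 CPM in the D14 libraries and 391, 394 and 412 CPM in the D0 libraries. Its groups overlapped, and its log2 fold change was −0.02 (SE 0.15; adjusted p = 0.964). Col1a2, its partner chain, had 545, 593 and 477 CPM at D14 and 492, 493 and 512 CPM at D0, with overlapping groups (log2 fold change 0.11 with SE 0.15; adjusted p = 0.764). Col3a1 had 841, 968 and 922 CPM at D14 and 861, 916 and 1205 CPM at D0, the highest value being that of D0 replicate 3, without which its log2 fold change of −0.13 (SE 0.19; adjusted p = 0.776) was 0.04. A p above the threshold does not show that these levels were equal.

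Type V collagen, which nucleates fibrils and limits their diameter, gave the fibrillar genes furthest to the positive side. Col5a3, on chromosome 9 from 20770050 to 20815067, encodes a chain that replaces others in some type V trimers. It had 13.3, 17.5 and 20.4 CPM in the D14 libraries and 11.0, 6.84 and 7.23 CPM in the D0 libraries, so every D14 library was above every D0 library. The means were 17.1 ± 3.61 CPM at D14 and 8.35 ± 2.29 CPM at D0 (SD, n = 3 each). Its log2 fold change was 1.03 with SE 0.26 (unadjusted p = 0.00466, adjusted p = 0.347). With any 1 library left out the log2 fold change was 0.88 to 1.28, and the adjusted p 0.159 to 0.725. Col5a1, the chain present in most type V collagen, had 90.0, 84.9 and 85.5 CPM at D14 and 81.0, 66.7 and 47.3 CPM at D0. The D14 libraries were again above, D0 replicate 3 being the lowest (log2 fold change 0.42 with SE 0.20; adjusted p = 0.426), and the log2 fold change was 0.23 without that library. Col5a2 had 145, 156 and 156 CPM at D14 and 150.3, 123 and 135 CPM at D0, with overlapping groups (log2 fold change 0.16 with SE 0.14; adjusted p = 0.618). The log2 ratio of Col5a3 to Col5a2 per kb was −3.34, −3.05 and −2.81 at D14 and −3.66, −4.06 and −4.11 at D0, a pair chosen after its values were seen. Of the other fibrillar genes Col27a1 had 19.5 to 22.6 CPM at D14 and 13.8 to 25.8 CPM at D0, and Col11a2 2.55 to 5.16 CPM at D14 and 3.16 to 4.19 CPM at D0. Col24a1 stayed under 1 CPM in every library. The 9 tested fibrillar genes had a median log2 fold change of 0.10, with 6 positive.

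Of the 4 classes, basement membrane collagen was the one whose D0 libraries had the widest median spread. Col4a1, on chromosome 8 from 11198423 to 11312826, and Col4a2, on chromosome 8 from 11312805 to 11449287, form the trimer found in nearly all basement membranes. Col4a1 had 1319.5, 1229 and 1353 CPM in the D14 libraries and 1263, 764 and 711 CPM in the D0 libraries. D0 replicate 1 was at the level of the D14 libraries and the other two D0 libraries were below all of them. The means were 1300.4 ± 64.0 CPM at D14 and 913 ± 305 CPM at D0 (SD, n = 3 each; log2 fold change 0.51 with SE 0.25; adjusted p = 0.424). Col4a2 followed the same order of D0 libraries, with 1065, 1123 and 1084 CPM at D14 and 1114, 713 and 599.9 CPM at D0 (log2 fold change 0.43 with SE 0.25; adjusted p = 0.471). Left without D0 replicate 1 the log2 fold changes were 0.82 for Col4a1 and 0.74 for Col4a2 (edgeR, adjusted p = 0.160 and 0.174). Left without D0 replicate 3 they were 0.36 and 0.26 (adjusted p = 0.554 and 0.639).

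Col4a3, Col4a4 and Col4a5 together form the trimer of the alveolar and glomerular basement membranes. Col4a3 had 414, 404 and 418 CPM at D14 and 389, 446 and 237 CPM at D0, within a narrow band except for D0 replicate 3 (log2 fold change 0.20 with SE 0.24; adjusted p = 0.711). Without that library its log2 fold change was −0.02. Col4a4 had 341, 311 and 361 CPM at D14 and 340.3, 420.2 and 292 CPM at D0 (log2 fold change −0.05 with SE 0.18; adjusted p = 0.905). Col4a5, an X-linked chain, had 211, 167 and 169 CPM at D14 and 183, 236 and 166 CPM at D0 (log2 fold change −0.10 with SE 0.19; adjusted p = 0.829). Neither gene separated the days, and D0 replicate 2 had the highest value of both. The 5 tested type IV genes had a median SD of log2 CPM of 0.0717 among the D14 libraries and 0.451 among the D0 libraries, against 0.191 and 0.289 over all tested genes. In all 5 of them D0 replicate 3 was the lowest D0 library, a count not taken over all genes. Their median deviation of log2(CPM + 0.5) from the mean of the 6 libraries was −0.59 in that library, against 0.01 over all tested genes. Their median log2 fold change of 0.20, with 3 positive, was −0.02 without D0 replicate 3.

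Summed endothelial markers placed the D0 libraries in the same order as Col4a1 and Col4a2 did, although Cldn5 and Emcn among them did not. Their summed level was 5127, 5002 and 5065 CPM at D14 and 4577, 3224 and 2461 CPM at D0, and 7 of 8 markers had a positive log2 fold change, with a median of 0.64. At an unadjusted p below 0.05 stood 4 of them, all higher at D14, against 5.48% of all genes higher. That number was 7 without D0 replicate 1, a setting in which 18.7% of all genes passed in either direction. It was 1 without scaling factors or when D14 replicate 2, D14 replicate 3 or D0 replicate 2 was left out. In those settings 6.65% to 12.8% of all genes passed in either direction. Pecam1, a junction protein of all endothelium, had 847, 945 and 1029.7 CPM at D14 and 786, 528 and 391 CPM at D0 (log2 fold change 0.73 with SE 0.26; adjusted p = 0.365), with a log2 fold change of 0.52 without D0 replicate 3. Cldn5, a tight junction protein, had 1214, 1121 and 923 CPM at D14 and 713, 592 and 692 CPM at D0 (log2 fold change 0.71 with SE 0.18; adjusted p = 0.347). Cdh5, the most abundant of these markers, had 1076, 1028 and 1193 CPM at D14 and 1071, 664 and 364 CPM at D0. Its groups overlapped (log2 fold change 0.65 with SE 0.36; edgeR adjusted p = 0.458). Without D0 replicate 3 the log2 fold change of Cdh5 was 0.34. Alveolar type 1 markers summed to 4496 to 5629 CPM at D14 and 4713 to 6694 CPM at D0, and type 2 markers were highest in D0 replicate 3. Fibroblast markers summed to 4603 to 5479 CPM at D14 and 4467 to 6323 CPM at D0, with 3 of 10 members positive. Among them Pdgfra, the receptor that marks alveolar fibroblasts, had 347, 419.8 and 538 CPM at D14 and 332, 248 and 221 CPM at D0 (log2 fold change 0.71 with SE 0.23; adjusted p = 0.364) and Tcf21, a transcription factor of lipofibroblasts, 81.1, 76.1 and 61.1 CPM at D14 and 81.5, 117 and 88.0 CPM at D0 (log2 fold change −0.39 with SE 0.19; adjusted p = 0.426). Inmt and Mfap4, the most abundant fibroblast markers, stood at log2 fold changes of −0.42 (SE 0.28) and −0.10 (SE 0.21). Smooth muscle and pericyte markers summed to 855 to 948 CPM at D14 and 691 to 913 CPM at D0. Among them Pdgfrb, Notch3 and Cspg4 followed the D0 order of Col4a1 (Pdgfrb 161, 87.2 and 42.6 CPM at D0). Acta2, Actg2, Tagln and Des ran in the opposite order (Tagln 80.9, 174 and 256 CPM at D0), and the rest of that list in neither. Myh11, which had the smallest p of that list, stood at 0.43 (SE 0.14; edgeR adjusted p = 0.364). Mesothelial markers summed to 660 to 786 CPM at D14 and 562 to 1513 CPM at D0. Red cell markers summed to 16454 to 28939 CPM at D14 and 9247 to 52513 CPM at D0. The part of these cell types in the collagen values was not tested.

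Chains that assemble in 1 triple helix were then set against each other within each library, as log2 ratios of CPM per kb. The ratio of Col4a1 to Col4a2 was 0.27, 0.09 and 0.28 at D14 and 0.14, 0.06 and 0.21 at D0, so it stayed between 1.05 and 1.22 on the linear scale while both genes spanned a wide range. The ratio of Col6a1 to Col6a2 was as even, at 0.47, 0.47 and 0.53 at D14 and 0.60, 0.52 and 0.46 at D0. Col1a1 to Col1a2 gave −0.70, −0.57 and −0.52 at D14 and −0.48, −0.47 and −0.46 at D0, all D14 libraries being lower by small steps. Col4a3 to Col4a4 gave 0.52, 0.62 and 0.45 at D14 and 0.43, 0.33 and −0.06 at D0. The D14 ratios lay above the D0 ratios, by 0.30 in the mean and by 0.15 without D0 replicate 3, although the nearest values were 0.45 and 0.43. Col5a1 to Col5a2 gave −1.03, −1.22 and −1.21 at D14 and −1.24, −1.23 and −1.86 at D0, a difference of 0.29 in the mean and of 0.08 without D0 replicate 3. The D14 ratios of this pair also lay above the D0 ratios, with nearest values of −1.225 and −1.230. Col6a3, the long chain of type VI collagen, to Col6a1 gave −2.25, −2.29 and −2.18 at D14 and −1.92, −2.58 and −3.58 at D0, the widest spread of the 6 pairs. These ratios are descriptions, with 3 libraries a day and no test. How often ratios of other gene pairs separated the days was not counted.

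**Figure D3:**
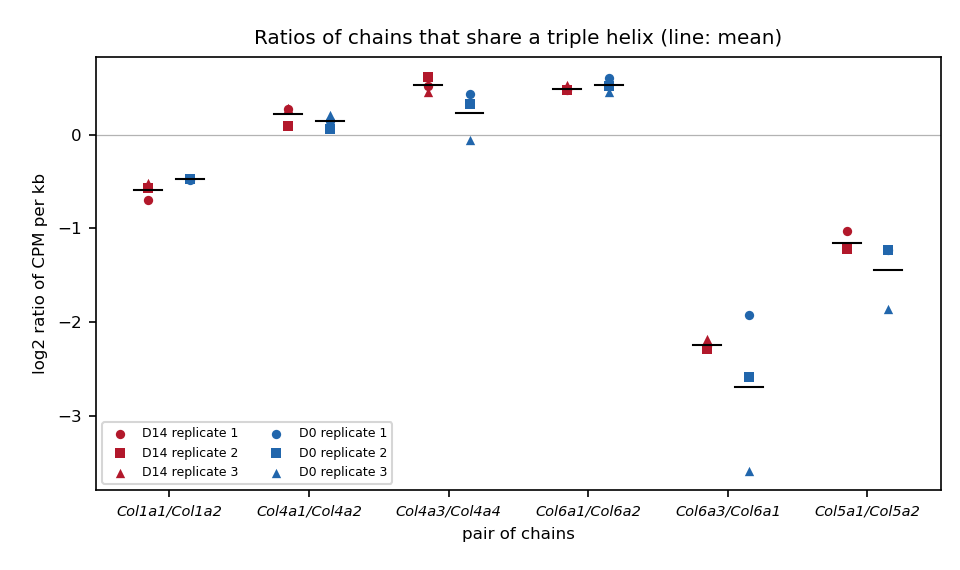
Log2 ratio of CPM per kb for 6 pairs of chains that share a triple helix, by library (red D14, left; blue D0, right; black line, mean). Col4a1/Col4a2 and Col6a1/Col6a2 vary little, whereas Col6a3/Col6a1 runs from −1.92 to −3.58 among the D0 libraries.

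FACIT genes had fold changes of both signs. Col12a1, a chain that decorates type I fibrils in tissues under tension, on chromosome 9 from 79598991 to 79718831, had 61.3, 63.3 and 55.8 CPM at D14 and 54.8, 42.7 and 32.4 CPM at D0. Its groups did not overlap, with D14 replicate 3 just above D0 replicate 1 (log2 fold change 0.47 with SE 0.20; adjusted p = 0.398), and without D0 replicate 3 its log2 fold change was 0.30. Col16a1 had 67.2, 47.6 and 53.5 CPM at D14 and 52.4, 55.3 and 89.1 CPM at D0, D0 replicate 3 standing highest (log2 fold change −0.22 with SE 0.24; adjusted p = 0.689), and without that library its log2 fold change was 0.06. Col14a1, a fibril-associated chain of fibroblasts, had 55.2, 59.9 and 67.0 CPM at D14 and 48.3, 77.0 and 50.3 CPM at D0 (log2 fold change 0.05 with SE 0.21; adjusted p = 0.919). Its groups overlapped. Col20a1 had 7.41, 6.76 and 7.95 CPM at D14 and 10.6, 9.90 and 8.57 CPM at D0, so that every D14 library was lower than every D0 library (log2 fold change −0.39 with SE 0.19; adjusted p = 0.423). Col9a3, a cartilage FACIT chain, had 0.385 to 1.10 CPM at D14 and 0.447 to 1.26 CPM at D0. The 5 tested FACIT genes had a median log2 fold change of −0.09, with 2 positive, and the median was −0.37 to 0.06 with 1 library left out.

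Of the other collagens the beaded-filament chains were the most abundant. Col6a1 had 316, 375 and 286 CPM at D14 and 324, 315 and 334 CPM at D0 (log2 fold change 0.01 with SE 0.16; adjusted p = 0.989), and Col6a2 had 272, 324 and 238 CPM at D14 and 256, 263 and 291 CPM at D0 (log2 fold change 0.04 with SE 0.17; adjusted p = 0.922). Both had overlapping groups, and their fold changes were negative without scaling factors. Col6a3 had 163, 189 and 156 CPM at D14 and 211, 129.6 and 68.6 CPM at D0. The D14 values lay inside the D0 range (log2 fold change 0.31 with SE 0.36; adjusted p = 0.709), and the log2 fold change came to 0.78 when D0 replicate 1 was left out and to −0.01 when D0 replicate 3 was. The less abundant type VI chains Col6a4, Col6a5 and Col6a6 had 0.463 to 9.10 CPM at D14 and 1.47 to 10.2 CPM at D0, all with overlapping groups.

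Col8a1, a short-chain network collagen made by vascular cells, on chromosome 16 from 57624258 to 57754737, had 9.56, 13.9 and 10.8 CPM in the D14 libraries and 8.08, 6.71 and 5.34 CPM in the D0 libraries. Every D14 library was above every D0 library (log2 fold change 0.76 with SE 0.24; adjusted p = 0.364; unadjusted p = 0.0141). Its partner Col8a2 had 9.44, 9.44 and 10.2 CPM at D14 and 10.4, 7.22 and 8.15 CPM at D0, with overlapping groups (log2 fold change 0.17 with SE 0.20; adjusted p = 0.716). Col15a1, a multiplexin of vascular and muscle basement membrane zones, on chromosome 4 from 47208161 to 47313167, had 13.4, 19.4 and 32.9 CPM at D14 and 14.2, 11.0 and 11.1 CPM at D0. Its unadjusted p was 0.0317, although D14 replicate 1 lay below D0 replicate 1 (log2 fold change 0.85 with SE 0.32; adjusted p = 0.373). Without D14 replicate 3 the log2 fold change of Col15a1 was 0.44. Col18a1, the multiplexin whose cleaved end is endostatin, had 75.9, 78.9 and 53.5 CPM at D14 and 69.5, 56.6 and 38.1 CPM at D0 (log2 fold change 0.34 with SE 0.25; adjusted p = 0.552). Its groups overlapped, and without D0 replicate 3 the log2 fold change was 0.14. Col18a1 overlaps Slc19a1 on the opposite strand, which had 91 to 156 counts in a library, and the use of strand in the counting is not given in the sources used here.

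The tested membrane-spanning collagens were Col13a1, Col23a1 and Col17a1. Col13a1, a collagen of cell-matrix adhesion sites, had 91.4, 75.6 and 70.6 CPM at D14 and 83.0, 58.1 and 53.7 CPM at D0 (log2 fold change 0.29 with SE 0.20; adjusted p = 0.542). Col23a1 had 77.4, 87.0 and 73.4 CPM at D14 and 97.9, 65.4 and 51.3 CPM at D0 (log2 fold change 0.15 with SE 0.24; adjusted p = 0.794). Col17a1, a hemidesmosome component of epithelia, had 6.72, 6.25 and 6.60 CPM at D14 and 8.95, 5.18 and 4.14 CPM at D0 (log2 fold change 0.10 with SE 0.31; adjusted p = 0.903). In these 3 genes D0 replicate 1 was the highest D0 library and D0 replicate 3 the lowest, and the groups overlapped. Without D0 replicate 3 the log2 fold changes were 0.17 for Col13a1, −0.04 for Col23a1 and −0.12 for Col17a1. Col7a1, the anchoring fibril collagen, had 7.34 ± 1.58 CPM at D14 and 8.10 ± 1.69 CPM at D0 (SD, n = 3 each), with overlapping groups. The 14 tested genes of this mixed class had a median log2 fold change of 0.15, with 11 positive. Leaving out D0 replicate 3 lowered the class median to 0.03, whereas leaving out D0 replicate 1 raised it to 0.39.

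Classes were also compared by the share of the summed collagen level, in CPM per kb, that each took in a library. Type IV genes took 44.5%, 41.0% and 45.5% at D14 and 44.2%, 38.2% and 30.9% at D0. Fibrillar genes took 32.9%, 35.4% and 33.7% at D14 and 32.9%, 38.1% and 45.1% at D0. The days overlapped in both classes, and D0 replicate 1 had nearly the same make-up as D14 replicate 1. FACIT genes took 2.26% to 2.66% at D14 and 2.31% to 3.28% at D0. The other collagens took 18.2% to 21.4% at D14 and 20.6% to 20.7% at D0, the most even class among the D0 libraries. Summed over all 42 genes the level was 1077, 1130.0 and 1061 CPM per kb at D14 and 1066, 931 and 913 CPM per kb at D0.

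**Figure D4:**
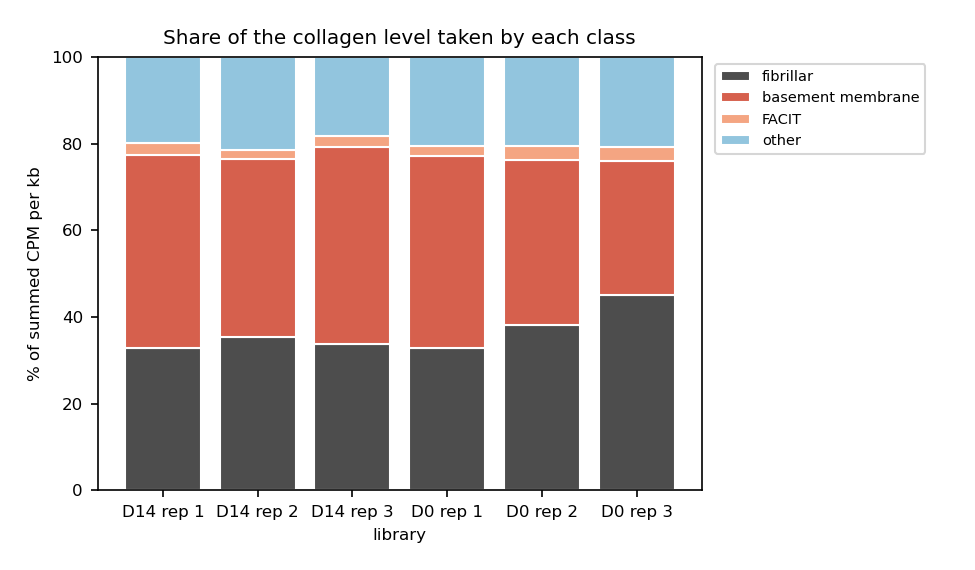
Share of the summed collagen level (CPM per kb) taken by each class in the 6 libraries, as stacked bars that add to 100%. The basement membrane share is 41.0% to 45.5% at D14 and 30.9% to 44.2% at D0, and the fibrillar share is 45.1% in D0 replicate 3.

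Across the members the D0 libraries differed among themselves more than the D14 libraries did. The median SD of log2 CPM of the 33 tested members was 0.158 among the D14 libraries and 0.370 among the D0 libraries, against 0.191 and 0.289 over all tested genes. D0 replicate 1 was the highest D0 library in 19 of the 33 and D0 replicate 3 the lowest in 17. Without D0 replicate 1, 10 of the 33 tested members stood at an unadjusted p below 0.05 by edgeR, all higher at D14. They were Col5a3, Col15a1, Col8a1, Col4a1, Col4a2, Col5a1, Col12a1, Col13a1, Col6a3 and Col23a1. That setting gave 18.7% of all tested genes in either direction, and the share higher at D14 alone is not given here. By edgeR 0 members passed an adjusted p of 0.05 there, against 0.0166% of all genes, the smallest being 0.159. Without D0 replicate 3 there were 3 members, Col5a3 and Col8a1 higher and Col20a1 lower, beside 11.6% of all genes, and again 0 passed an adjusted p of 0.05, against 0.121% of all genes.

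**Figure D5:**
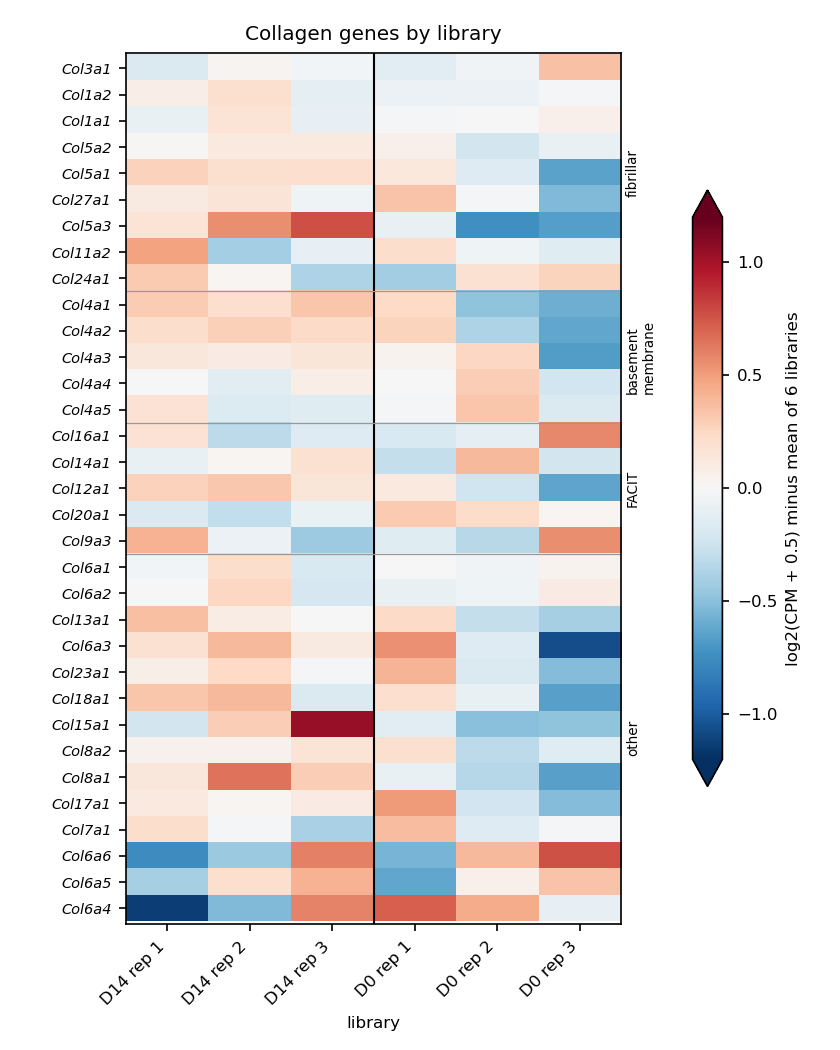
Deviation of log2(CPM + 0.5) from the mean of the 6 libraries for the 33 tested collagen genes (rows, by class) in each library (columns, D14 left of D0); red is above the mean and blue below. Col4a1, Col4a2, Col5a1, Col12a1, Col6a3 and Col18a1 are lowest in D0 replicate 3, while Col1a1, Col1a2, Col6a1 and Col6a2 are close to even.

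The 9 collagen genes below the count filter were Col2a1, Col4a6, Col9a2, Col10a1, Col11a1, Col22a1, Col25a1, Col26a1 and Col28a1. They had at most 27 counts in any library, that count being of Col28a1 in D0 replicate 1. Col2a1, the main collagen of hyaline cartilage, gave 0, 0 and 1 counts in the D14 libraries against 4, 0 and 0 in the D0 libraries. Col11a1 gave 0, 0 and 3 counts in the D14 libraries against 0, 0 and 5 in the D0 libraries, and Col10a1, the collagen of hypertrophic cartilage, 0, 1 and 9 in the D14 libraries against 2, 4 and 2 in the D0 libraries. Col4a6, paired head to head with Col4a5, gave 13, 7 and 7 counts in the D14 libraries against 4, 9 and 5 in the D0 libraries. A difference between the days was not detectable at these depths. Col10a1 overlaps Nt5dc1, which had 246 to 354 counts in a library. Chondrocyte markers were also low: 7 of 10 had a row, Acan, the cartilage proteoglycan, had at most 2 counts in a library, and most of the summed 80.3 to 97.0 CPM at D14 and 83.3 to 116 CPM at D0 came from Cytl1. Of the osteoblast markers, the lineage of the implanted line, 7 of 10 had a row. Bglap, encoding osteocalcin, had 2, 0 and 0 counts at D14 and 0 in each D0 library, and Sp7, an osteoblast transcription factor, 0, 2 and 1 counts at D14 and 0 in each D0 library. The osteoblast list summed to 45.2 to 51.4 CPM at D14 and 29.4 to 44.7 CPM at D0, mostly from Alpl, which lung epithelium also expresses. These sums only narrowly failed to overlap, and 0 of the 4 tested genes of the list separated the days in range. Of all genes, 10.9% lay higher at D14 in range and 10.7% lower.

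The proteins that make, export, crosslink, bind and break down collagen were read from 7 lists with 74 symbols, of which 70 were tested. By edgeR 0 passed an adjusted p of 0.05 (0.0339% of all genes). At an unadjusted p below 0.05, 10 were higher at D14 (against 5.48% of all genes) and 2 lower (against 7.09%), and DESeq2 placed 14 and 3 there. Without D0 replicate 1 the numbers were 16 and 7, without D0 replicate 2 they were 6 and 1, and without D14 replicate 2 they were 5 and 2. Without D14 replicate 3 they were 4 and 1, and without scaling factors 5 were higher. Of all genes, 13.6% passed in either direction with DESeq2, 18.7% without D0 replicate 1 and 9.2% without D0 replicate 2. The share was 6.76% without D14 replicate 2, 6.65% without D14 replicate 3 and 12.8% without scaling factors.

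Of 18 folding and modification genes 2 were higher (against 5.48% of all genes) and 2 lower (against 7.09%) at that level, with a median log2 fold change of 0.01. P4ha1, a catalytic subunit of collagen prolyl hydroxylase, had 135, 154 and 150.5 CPM at D14 and 98.8, 95.2 and 119 CPM at D0 (log2 fold change 0.49 with SE 0.15; adjusted p = 0.362). Colgalt1, the galactosyltransferase of hydroxylysine, had 58.0, 60.8 and 46.4 CPM at D14 and 76.5, 139 and 130.1 CPM at D0, every D14 library being lower (log2 fold change −1.07 with SE 0.25; adjusted p = 0.326). The most abundant of the list, P4hb and Ppib, stood at −0.08 (SE 0.18) and −0.31 (SE 0.20). In the export and propeptide cleavage list 0 of 12 tested genes stood at that level in either direction, against 12.6% of all genes (median 0.06). In it Mia3, which loads procollagen into carriers, stood at 0.29 (SE 0.14) and Sec23a, a coat protein, at 0.29 (SE 0.17). Pcolce2 and Pcolce, enhancers of propeptide cleavage, were its most abundant members, at −0.05 (SE 0.16) and −0.15 (SE 0.17).

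Of the 5 lysyl oxidases, which crosslink collagen and elastin, 3 were higher at an unadjusted p below 0.05 (against 5.48% of all genes) and 0 lower (against 7.09%). The 3 became 2 when D14 replicate 2, D14 replicate 3, D0 replicate 1 or D0 replicate 3 was left out, and 2 without scaling factors. Of all genes, 6.76%, 6.65%, 18.7% and 11.6% passed in either direction without these libraries in turn, and 12.8% without scaling factors. Lox had 109, 129 and 221 CPM at D14 and 62.9, 55.5 and 88.0 CPM at D0 (log2 fold change 1.15 with SE 0.30; adjusted p = 0.347), and its log2 fold change was 0.79 without D14 replicate 3. Loxl4 had 3.24, 13.3 and 3.20 CPM at D14 and 1.45, 2.24 and 1.33 CPM at D0, D14 replicate 2 standing far above the rest (log2 fold change 1.97 with SE 0.62; adjusted p = 0.364). Without that library its log2 fold change was 0.94. Loxl1, the most abundant, stood at −0.26 (SE 0.16). Among the 6 type IV partners 0 stood at that level, against 12.6% of all genes in either direction. Nid1, nidogen, which links laminin to type IV collagen, had 213, 230.4 and 278 CPM at D14 and 209.5, 142 and 73.3 CPM at D0, in the same order of D0 libraries as Col4a1 (log2 fold change 0.76 with SE 0.35; adjusted p = 0.413). Without D0 replicate 3 the log2 fold change was 0.45 for Nid1, 0.10 for Pxdn, 0.03 for Hspg2 and −0.32 for Agrn. Pxdn, the peroxidase that crosslinks type IV collagen, stood at 0.39 (SE 0.31), Hspg2, perlecan, at 0.28 (SE 0.26) and Agrn, agrin, at −0.12 (SE 0.23) with all libraries.

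Of 13 tested fibril-binding proteoglycans and glycoproteins 2 were higher (against 5.48% of all genes) and 0 lower (against 7.09%), with a median of −0.13. Prelp, which binds fibrils to basement membranes, had 518 ± 51.2 CPM at D14 and 349 ± 75.3 CPM at D0 (log2 fold change 0.57 with SE 0.20; adjusted p = 0.364), and Postn, periostin, had 278 ± 2.04 CPM at D14 and 175 ± 67.5 CPM at D0 (SD, n = 3 each; log2 fold change 0.67 with SE 0.28; adjusted p = 0.39). Without D0 replicate 3 they stood at 0.43 (Prelp) and 0.42 (Postn). Sparc, a collagen-binding matricellular protein, and Bgn, biglycan, stood at −0.02 (SE 0.16) and 0.34 (SE 0.16). Of 10 collagen receptors 2 were higher and 0 lower, against the same shares of all genes. Ddr2, a tyrosine kinase receptor for fibrillar collagen, had 159, 169 and 191 CPM at D14 and 113, 120.3 and 85.1 CPM at D0, without overlap (log2 fold change 0.71 with SE 0.18; adjusted p = 0.347). Itga1, an integrin chain with a preference for type IV collagen, had 376, 375 and 433 CPM at D14 and 336, 211 and 125 CPM at D0 (log2 fold change 0.82 with SE 0.33; adjusted p = 0.385), and 0.53 on the log2 scale without D0 replicate 3. Itgb1, its partner, stood at 0.42 (SE 0.18). Of 6 tested collagen-degrading proteases 1 was higher (against 5.48% of all genes) and 0 lower (against 7.09%). It was Mmp14, a membrane-bound collagenase, with 87.0 ± 9.63 CPM at D14 and 67.7 ± 7.39 CPM at D0 (log2 fold change 0.36 with SE 0.15, edgeR adjusted p = 0.393). Mmp2 and Mmp8 stood at 0.19 (SE 0.17) and 0.65 (SE 0.34), Mmp8 at 0.28 without D14 replicate 2. Several of these small counts rest on single libraries. The 2 fibril-binding genes became 0 without D14 replicate 2, D14 replicate 3 or D0 replicate 2, and the 2 receptors became 1 when any D14 library or D0 replicate 2 was left out and 4 without D0 replicate 1. The protease count was 2 without D0 replicate 1 and 0 when any other library was left out. The share of all genes in either direction moved too. It was 11.4%, 6.76% and 6.65% without D14 replicate 1, 2 or 3, and 18.7%, 9.2% and 11.6% without D0 replicate 1, 2 or 3.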

How the data were processed

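Lung RNA was sequenced in 6 libraries. The submitters' processing notes list HISAT2 2.1.0, StringTie 1.3.4b, CASAVA 1.8, edgeR and the build GRCm38, without roles. Whether reads were counted by strand, and on which annotation, is not given in the sources used here. The deposited table holds estimated counts per symbol, not scaled for depth, rounded here (the values used were whole). Of 29757 lines 4 were left out as empty or displaced, and 0 columns were of no sample. No collagen symbol was repeated. With edgeR 4.0.16 in R 4.3.3 (TMM, default low count filter, robust quasi-likelihood F test, two-sided, no covariate), D14 was compared with D0 over all genes, with Benjamini-Hochberg adjustment and a threshold of 0.05; SE is the absolute log2 fold change divided by the square root of F. Alternatives were DESeq2 1.42.0, limma-voom (limma 3.58.1), other scaling, filters and dispersion settings, a replicate block, summed repeated symbols, each library left out, and median transcript lengths. The fit was also run on simulated counts, with results not reported here. Transcript lengths, positions and overlaps come from GENCODE M21 (GRCm38). Members and lists were chosen with earlier results of these data known. Values of every library are given, per class, for the 3 genes with the highest level, the 3 with the smallest p and the paired chains, with some others added after their values were seen. For the lists of collagen-related and collagen-like proteins, 2 genes by p and 2 by CPM are named. Marker lists are given as sums, and the markers named from them do not follow that rule in full. With 3 libraries a day an exact permutation test of 1 gene reaches no p below 0.1, so none was used.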

Additional observations from a re-analysis of the deposited data

How the results depend on the processing

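Under all 15 alternatives of the gene test except DESeq2, 0 collagen genes passed an adjusted p of 0.05; DESeq2 called 1, Col5a3. Over all genes the 6 calls became 272 with DESeq2, 26 with no filter on low counts, 0 with the replicate block and 0 to 22 with 1 library left out (0 when any D14 library was left out, and 3, 1 and 22 when D0 replicate 1, 2 or 3 was). At an unadjusted p below 0.05 the 3 members became 5 with DESeq2, numbered 3 with the replicate block and became 2 to 10 with 1 library left out. The labels do not say that replicate numbers pair the samples. Same-numbered libraries deviated together with correlations of 0.119, −0.0548 and −0.0972, and libraries of unlike number with −0.168 to 0.183. With 3 libraries a day such values cannot exclude a shared litter or batch. The median log2 fold change of members, and that of the fibrillar genes, was 0.0138 without scaling factors. With 1 library left out the medians ran from 0.05 to 0.17 (members), 0.05 to 0.17 (fibrillar), −0.02 to 0.35 (type IV), −0.368 to 0.0620 (FACIT) and 0.0275 to 0.395 (other). The D14 minus D0 share ran from 2.46 to 9.09 percentage points for type IV, −7.59 to −1.52 for fibrillar, −0.664 to −0.181 for FACIT and −1.55 to 0.00622 for other genes. The companion counts ran from 4 to 16 higher and 1 to 7 lower, and 5 were higher without scaling factors. With 1 library left out, 6.65% to 18.7% of all genes stood at an unadjusted p below 0.05 by edgeR in either direction. The 20 genes followed through all alternatives kept their sign and side of the threshold in 279 of 300 values. Without scaling factors Col14a1 was −0.0184, Col6a1 −0.0630 and Col6a2 −0.0240; Col6a1 was −0.0037 with limma-voom and −0.0036 with the replicate block. With 1 library left out, these genes took both signs: Col1a1 (−0.105 to 0.0329), Col3a1 (−0.215 to 0.0362), Col4a3 (−0.0186 to 0.403), Col4a4 (−0.170 to 0.101), Col6a1 (−0.106 to 0.0926), Col6a2 (−0.0813 to 0.145), Col6a3 (−0.00548 to 0.780), Col14a1 (−0.0613 to 0.306) and Col16a1 (−0.368 to 0.0620). The cause was not tested. Depth limits the 9 genes below the count filter.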

Other observations

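Proteins with collagen-like triple helices that are not collagens were listed after the data were seen and are given as values. Of 20 symbols 18 were tested, with a median log2 fold change of −0.23, 7 positive and 0 past an adjusted p of 0.05 by edgeR (at an unadjusted p below 0.05, 2 higher and 1 lower, against 5.48% and 7.09% of all genes). Sftpa1 and Sftpd, surfactant collectins, had 3359.9, 3341 and 3110.3 CPM and 654, 539.8 and 478 CPM at D14 and 2801, 3123 and 5111 CPM and 546, 523 and 1063 CPM at D0, with overlapping groups. Their log2 fold changes were −0.17 and −0.35 with all libraries and 0.14 and 0.06 without D0 replicate 3. Marco, a scavenger receptor of alveolar macrophages, had 1.51, 2.36 and 0.833 CPM at D14 and 1.86, 2.17 and 35.7 CPM at D0 (log2 fold change −3.07 with SE 1.21; adjusted p = 0.38), D0 replicate 3 being far above the others. Without that library the log2 fold change was −0.36 (edgeR, adjusted p = 0.781). Emid1, an EMI domain protein, had 24.0 ± 1.27 CPM at D14 and 16.6 ± 2.28 CPM at D0 (SD, n = 3 each; log2 fold change 0.53 with SE 0.16; adjusted p = 0.362). Colec12, a collectin of vascular cells, had 163 ± 12.5 CPM at D14 and 119.5 ± 24.2 CPM at D0 (SD, n = 3 each; log2 fold change 0.45 with SE 0.18; adjusted p = 0.39).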
